A study of Mus musculus with 87 samples.

Results

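The retrovirus-like transcripts described here are the 51 of 1146 repeat names in the deposited mouse tables that begin with IAP, MMETn, ETn, ERVB or RLTRETN. They comprised 25 IAP names, 5 ETn names and 21 ERVB names, and their loci numbered 42121 on chromosomes 1 to 19, X and Y of GRCm38. Names ending in -int or -I stand for the internal, coding part of an element, and names with LTR for its long terminal repeat, which carries the promoter. The study asked whether *Obox4*, a multicopy homeobox gene, can drive zygotic genome activation without *Dux*, another multicopy homeobox gene. Its RNA-seq covered 41 libraries in 5 experiments, and CUT&RUN, which maps a protein or histone mark along the genome, gave peak lists for tagged OBOX4 and DUX and for 3 histone marks.

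IAP (intracisternal A particle) and ETn (early transposon) elements are endogenous retroviruses of the ERVK group. Many IAP copies encode proteins of their own, whereas ETn elements lack working genes and move with proteins supplied by related elements; both still insert anew in laboratory mice. In mouse embryonic stem cells (mESCs) such elements are bound by KRAB zinc finger proteins, which recruit TRIM28 and the histone H3K9 methyltransferase SETDB1, and DNA methylation kept up by DNMT1 silences IAP elements in later embryos. IAP transcripts are nevertheless present in normal preimplantation embryos.

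In the induction experiment, 129/Ola mESCs with a doxycycline-driven 3xFLAG-*Obox4* transgene were sampled at 0, 12 and 48 h (3 libraries each). B6D2F1 zygotes were injected with antisense oligonucleotides and collected as 2C-embryos 20 h later, in pools of 30 embryos: double knockdown of *Dux* and *Obox4* with *Obox4* mRNA added back (rescue), double knockdown, *Dux* knockdown, *Obox4* knockdown and a scrambled oligonucleotide (2 libraries each). The total oligonucleotide dose was 40 µM for rescue, double knockdown and scramble but 20 µM for the single knockdowns, with mRNA at 100 ng/µL in rescue. For rescue and double knockdown this total was an equimolar mixture of the *Dux* and *Obox4* oligonucleotides. Morulae came from double knockdown and scramble embryos (2 libraries each). Single blastomeres of 2C-embryos carried *Obox4* KO, *Obox4* Het or *Obox4* WT alleles, and every one of them lacked *Dux*, including the *Obox4* WT reference (2 libraries each). The last experiment used mESCs treated with pladienolide B (PlaB), which blocks splicing and moves mESCs towards a totipotent-like state: double KO, *Dux* KO, *Obox4* KO and WT (3 libraries each), with no untreated RNA library among the samples used here. The inducible and KO cells are cultured lines, so that line and genotype cannot be told apart, and for the morulae and the PlaB cells nothing states that libraries of a group came from separate cultures or animals, so p-values there measure the spread between libraries, which may be technical.

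Library checks bear on the results as follows. Repeat reads per library ranged from 1744371 to 24242756, and members held 0.667 to 1.10% of them in 2C-embryos, 0.813 to 1.77% in blastomeres, 3.55 to 7.11% in the induction series, 4.00 to 7.64% in PlaB and 5.14 to 8.04% in morulae. *Obox4* RNA summed over 39 copies was 5.00 to 7.11 CPM at 12 h and 7.08 to 8.51 CPM at 48 h of induction, against 0.385 to 0.611 CPM at 0 h. In 2C-embryos the 39-copy sum was 68 and 83.5 CPM in *Obox4* knockdown against 68.4 and 76 CPM in scramble, so it was not lower there. It was 44.1 and 41.7 CPM in double knockdown and 52.4 and 47.6 CPM in *Dux* knockdown. Without 1 copy (Obox4-ps35) that held most of the reads, it was 2.07 and 2.59 CPM in double knockdown and 5.00 and 3.01 CPM in *Dux* knockdown. Without that copy it was 3.94 and 3.03 CPM in *Obox4* knockdown and 12.2 and 17.6 CPM in scramble 2C-embryos. This smaller sum was thus low after *Dux* knockdown too. *Dux* RNA, counted as Duxf3, was 8.16 and 5.78 CPM in the 2C-embryo libraries labelled rescue, 3.86 and 2.92 CPM in double knockdown, 3.66 and 1.93 CPM in *Dux* knockdown, 8.37 and 5.54 CPM in *Obox4* knockdown and 6.49 and 7.68 CPM in scramble, so the libraries labelled rescue were not low in *Dux*. In PlaB the 39-copy sum was 0 to 0.192 CPM in double KO, 0.116 to 0.130 CPM in *Dux* KO, 3.65 to 11.9 CPM in the libraries labelled *Obox4* KO and 15.6 to 17.0 CPM in WT, so it was lower in *Dux* KO than in the libraries labelled *Obox4* KO, which still held *Obox4* reads. The 39-copy sum was 3.74 and 7.93 CPM in the morulae labelled double knockdown, against 0.321 and 0.351 CPM in scramble morulae, so the label could not be checked there, and the sum did not separate the *Obox4* genotypes of the blastomeres either. For its KO mESCs and mice the paper deleted only the *Obox4* cluster and kept an intact copy outside it. The 39-copy sum thus also counts copies that were not targeted, so reads in it do not show that the deletion failed. Libraries that stood apart were *Obox4* KO replicate 3 and double KO replicate 3 in PlaB, and double knockdown replicate 2 of the morulae, whose 2-cell markers summed to 233 CPM against 4.39 CPM in replicate 1.

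OBOX4 peaks were found on ETn and ERVB loci far more often than on IAP loci. A locus was counted as bound when peaks of at least 2 of the 3 OBOX4 replicates overlapped it by at least 1 base. Of the ETn loci, 4.88% were bound (272 of 5571, Wilson 95% interval 4.35 to 5.48%), and of the ERVB loci 3.51% (279 of 7949, 3.13 to 3.94%), whereas 0.206% of the IAP loci were bound (59 of 28601, 0.160 to 0.266%). Over all members the share was 1.45% (610 of 42121), against 1.07% of all other LTR-class loci (9916 of 928263), a background that the IAP share fell below and the other families exceeded at this overlap. With the summit required inside the locus the shares were 1.992% for ETn and 0.6416% for ERVB, with no such share given for other LTR-class loci. Loci that lie together share a peak, so intervals cover counting error only, and the 610 bound loci lay in 320 sites once loci within 1000 bases were joined. Of these sites, 203 held an ERVB name and 79 held both an ETn and an ERVB name, so these families share peaks. For comparison, the single DUX list of 1802 peaks overlapped 13 member loci (0.0309%).

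Single names differed widely. Among names with at least 100 loci, ERVB4_2-LTR_MM had the highest share, 22.4% of 143 loci (16.3 to 29.9%), followed by ERVB3_1-LTR_MM with 13.3% of 158 (8.86 to 19.5%). The ETn internal regions MMETn-int and ETnERV-int followed with 9.70% of 979 loci (8.00 to 11.7%) and 9.54% of 891 loci (7.78 to 11.7%), and their intervals overlap nearly completely. ERVB7_1-LTR_MM (8.23% of 766), ERVB7_4-LTR_MM (7.23% of 166), ERVB4_1C-LTR_Mm (5.98% of 953) and ERVB2_1A-I_MM-int (5.88% of 289) completed the 8 highest, and their intervals overlap each other. At the other end, 3 of 7295 loci of IAPEz-int, the internal region of the main IAP class, were bound. No locus was bound among 1485 of its LTR IAPLTR1_Mm, 1783 of IAPLTR1a_Mm or 751 of IAPEy-int, counts of 0 that allow shares of up to 0.202%, 0.168% and 0.399%. The IAP names above the share of other LTR-class loci were IAPEY4_LTR, of which 15.2% of 92 loci were bound (9.29 to 23.9%), and its internal region IAPEY4_I-int (3.50% of 515; 2.22 to 5.46%).

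**Figure D1:**
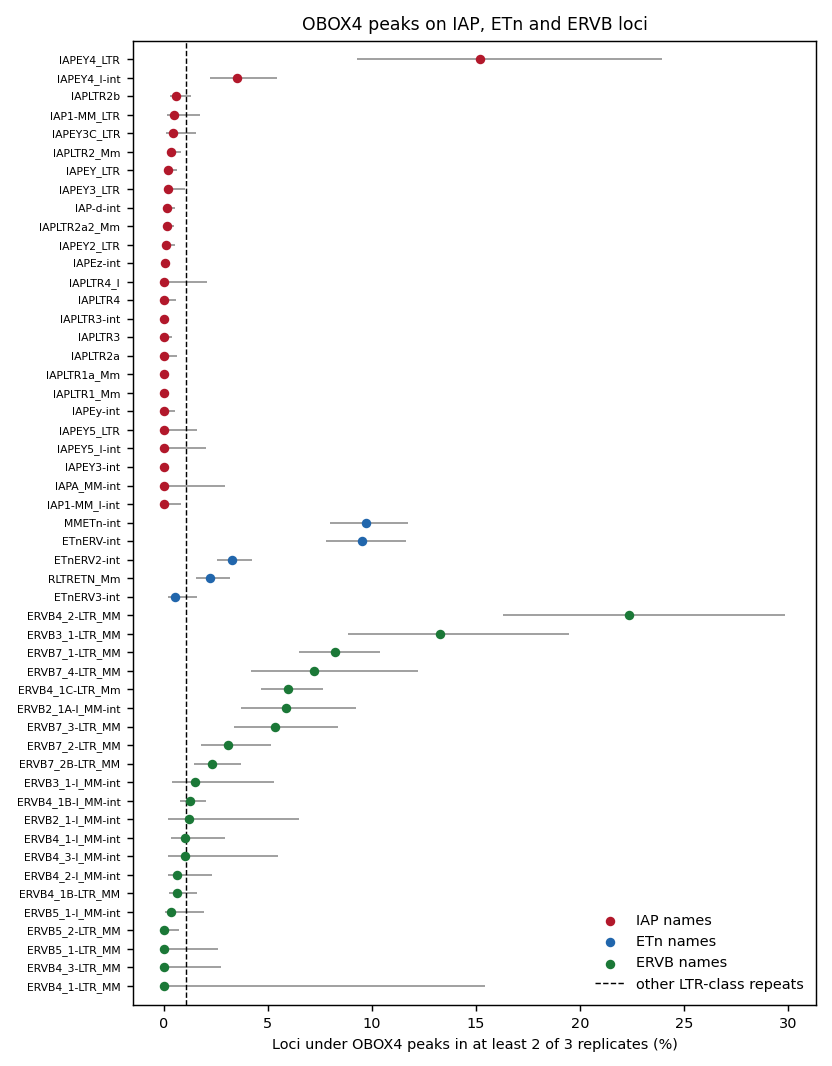
Share of loci under OBOX4 peaks in at least 2 of 3 replicates (x axis, percent) for the member names; bars are Wilson 95% intervals and the dashed line is the share of all other LTR-class loci, 1.07%. ERVB4_2-LTR_MM stands highest at 22.4%, and the most numerous IAP names lie at or near 0.

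The sequences of 4 highly bound LTRs are printed to show which bases OBOX4 peaks covered. The names are the 4 LTR names with the highest share among those with at least 100 loci. For each, the bound locus with the highest enrichment in replicate 1, leaving out 1 chromosome, is printed below from the GRCm38 reference. It runs 5′ to 3′ on the element's strand and is limited to 300 bases. Capitals mark bases under OBOX4 peaks of at least 2 replicates. The ERVB4_2-LTR_MM window is chrY:32352652-32352951 (minus strand), the ERVB3_1-LTR_MM window chr14:21474348-21474489 (minus), the ERVB7_1-LTR_MM window chr14:112366144-112366443 (minus) and the ERVB7_4-LTR_MM window chr10:127892285-127892584 (plus). None of the 4 loci overlaps an annotated gene, and the nearest gene starts were those of Gm21744 (27535 bases), Gm30363 (1059 bases), Gm20127 (37110 bases) and Rdh7 (3558 bases).
ERVB4_2-LTR_MM: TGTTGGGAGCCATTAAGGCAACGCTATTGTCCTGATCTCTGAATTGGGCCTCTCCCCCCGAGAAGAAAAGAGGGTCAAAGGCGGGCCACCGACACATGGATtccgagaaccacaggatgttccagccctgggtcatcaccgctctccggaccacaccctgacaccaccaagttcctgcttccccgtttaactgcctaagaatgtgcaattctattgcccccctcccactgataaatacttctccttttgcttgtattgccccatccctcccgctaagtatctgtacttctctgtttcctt
ERVB3_1-LTR_MM: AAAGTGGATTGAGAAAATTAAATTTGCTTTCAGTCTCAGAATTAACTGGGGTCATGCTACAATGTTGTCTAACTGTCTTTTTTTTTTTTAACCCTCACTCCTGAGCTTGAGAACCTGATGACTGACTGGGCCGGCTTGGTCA
ERVB7_1-LTR_MM: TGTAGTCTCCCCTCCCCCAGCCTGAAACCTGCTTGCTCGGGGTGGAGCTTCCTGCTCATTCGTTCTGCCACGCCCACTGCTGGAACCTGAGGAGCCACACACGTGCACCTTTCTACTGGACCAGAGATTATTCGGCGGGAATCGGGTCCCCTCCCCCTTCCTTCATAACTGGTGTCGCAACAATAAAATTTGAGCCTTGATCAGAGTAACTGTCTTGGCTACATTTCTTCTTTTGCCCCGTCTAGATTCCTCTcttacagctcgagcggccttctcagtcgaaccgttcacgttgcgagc
ERVB7_4-LTR_MM: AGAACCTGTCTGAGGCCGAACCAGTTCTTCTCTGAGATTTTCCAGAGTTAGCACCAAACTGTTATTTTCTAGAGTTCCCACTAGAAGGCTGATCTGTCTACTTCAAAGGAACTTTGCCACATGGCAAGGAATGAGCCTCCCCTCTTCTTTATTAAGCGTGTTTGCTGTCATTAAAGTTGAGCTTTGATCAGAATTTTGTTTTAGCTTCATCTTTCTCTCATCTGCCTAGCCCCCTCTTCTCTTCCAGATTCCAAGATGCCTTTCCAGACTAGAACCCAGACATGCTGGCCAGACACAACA

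The peak summit in replicate 1 lay outside each of the 4 LTR loci printed above, in the same peak. The enrichments behind these loci differed between replicates. At the ERVB3_1-LTR_MM locus the peak was enriched 189.8-, 173.7- and 163.7-fold in the 3 replicates, and at the ERVB7_1-LTR_MM locus 50.1-, 45.0- and 38.4-fold. At the ERVB7_4-LTR_MM locus it was 22.5-fold in replicate 1, but 3.63- and 4.42-fold in the others. The ERVB4_2-LTR_MM locus had 12.6-, 8.26- and 4.50-fold. The ERVB3_1-LTR_MM and ERVB7_1-LTR_MM loci were under H3K4me3 and H3K27ac peaks in all 3 WT lists without PlaB. The ERVB7_4-LTR_MM locus was under H3K4me3 in 2 of these lists and under H3K27ac in 3, and the ERVB4_2-LTR_MM locus was under neither mark.

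Bound ERVB7_1-LTR_MM copies lay at ETn elements. Of the 439 copies within 10 bases of an MMETn-int or ETnERV-int locus, 14.1% were bound (62; 11.2 to 17.7%), against 1 of the 327 copies elsewhere (0.306%; 0.0540 to 1.71%). The site with the highest enrichment for MMETn-int, ERVB7_1-LTR_MM and ERVB4_1C-LTR_Mm was the same one, on chromosome 14. Of the 61 bound ERVB7_1-LTR_MM copies with a replicate 1 peak, the summit lay upstream of the LTR start by at most 400 bases in 33 (median 118 bases), inside the LTR in 16, farther upstream in 4 and downstream in 8.

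The sequence GGATTA, searched on both strands of the 100 bases around each shared peak's summit, was rare in member peaks. It was in 1 of 201 summit windows on members (0.498%; Wilson 95% interval 0.0879 to 2.76%), against 8.10% of 4620 windows on other LTR-class repeats and 6.31% of all 20598 shared peaks. The 1 window was on an IAP locus (1 of 33), with 0 of 111 on ETn (interval to 3.35%) and 0 of 57 on ERVB (to 6.31%). A match describes the letters in this window only. The OBOX4 motif that the paper predicted is longer and allows other bases at some positions, and it was not searched. Whether member peaks hold or lack that motif was therefore not tested. Copies of a name can be near-identical, so their windows are not independent and the intervals cover counting error only. The 610 bound loci lay a median of 20884.5 bases from the nearest gene start, against 20982 bases for the 41511 other member loci, and 17.5% of the bound loci against 12.5% of the others lay within 5 kb of one.

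Which names were expressed most differed between experiments. Levels are given as CPM of repeat reads, scaled by edgeR's TMM factors, and, where names are compared, as CPM per kb of annotated sequence averaged over the libraries of an experiment. MMETn-int was the highest name in the induction series (19.5 CPM per kb) and in PlaB (18.5 CPM per kb), where ETnERV-int (6.21 CPM per kb) and ETnERV3-int (5.81) followed, with ERVB7_1-LTR_MM (9.05) and ETnERV-int (6.28) behind it in the induction series. In morulae, ERVB4_2-LTR_MM (19.9 CPM per kb) and its internal region ERVB4_2-I_MM-int (15.1) stood above MMETn-int (6.69) and IAPEz-int (2.77). In 2C-embryos ERVB4_2-LTR_MM (0.764 CPM per kb), ETnERV3-int (0.621) and ERVB4_3-LTR_MM (0.566) led, and in blastomeres ERVB4_2-LTR_MM (1.39), IAP1-MM_LTR (0.696) and IAPEz-int (0.685). RLTRETN_Mm, the LTR of ETn elements, ranged between libraries from 415 to 900.6 CPM in the induction series, 220 to 683 CPM in PlaB, 319.6 to 592.1 CPM in morulae, 64.8 to 89.6 CPM in 2C-embryos and 72.7 to 127.8 CPM in blastomeres. IAP-d-int, the internal region of another IAP class, ranged from 395.5 to 562.4 CPM, 315.2 to 545.7 CPM, 108.3 to 136.5 CPM, 50.7 to 76.7 CPM and 1.19 to 67.3 CPM in the same order. The tables were scaled separately, so these orders hold within an experiment. In bulk libraries fewer expressing cells and less RNA per cell cannot be told apart.

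In 2C-embryos, edgeR called IAPEz-int and IAPLTR1_Mm higher after double knockdown of *Dux* and *Obox4*, the 2 of 25 IAP names so called. Other IAP names rose by less. IAP names, most of whose reads were IAPEz-int, summed to 8376 ± 291 CPM in double knockdown 2C-embryos and 4667 ± 205 CPM in scramble 2C-embryos (SD, n = 2 each). IAPEz-int gave 6616 and 6216 CPM in double knockdown, against 3130 and 2949 CPM in scramble. Its libraries did not overlap, and it rose by 1.08 ± 0.085 on the log2 scale (SE; edgeR adjusted p = 4.31e-06). IAPLTR1_Mm, the LTR of that class, had 363.5 and 324.6 CPM in double knockdown and 127.8 and 117.5 CPM in scramble, and rose by 1.49 ± 0.074 (edgeR adjusted p = 7.53e-08). ETnERV3-int also rose, with 581.6 and 713.5 CPM against 345.2 and 275.6 CPM (log2 1.06 ± 0.142; edgeR adjusted p = 3.07e-04), a call that was lost when libraries were scaled by the gene table (log2 0.98, under the 2-fold minimum).

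The most OBOX4-bound name went the other way. ERVB4_2-LTR_MM had 34.7 and 35.2 CPM in double knockdown, against 87.7 and 79.7 CPM in scramble, and fell (log2 −1.26 ± 0.135; edgeR adjusted p = 4.11e-05). ERVB4_3-I_MM-int fell as well (log2 −1.14 ± 0.220; edgeR adjusted p = 0.00357), at 6.26 and 4.11 CPM against 12.6 and 10.8 CPM. A call required an adjusted p of at most 0.01 and a 2-fold change. Of the 50 members tested, 3 were called higher and 2 lower, against 0.946% higher and 1.04% lower of all repeats. At an adjusted p of at most 0.05 with no fold minimum, 7 of 25 IAP names were higher and 4 lower, 2 of 5 ETn names higher and 1 lower, and 1 of 20 ERVB names higher and 7 lower, against 8.14% higher and 10.2% lower of all repeats. With gene-table scaling 6 members were higher and 16 lower at that level, against 10 and 12 with repeat scaling. Here and below, gene-scaled member counts at that level have no share of all repeats beside them. They are therefore no result about the members. The IAP median change was 0.16, the ERVB median −0.06 and that of all repeats 0.01. Among IAP names near the fold minimum, IAPLTR1a_Mm had 118.7 and 104.9 CPM in double knockdown and 63.7 and 61.2 CPM in scramble (log2 0.84 ± 0.072; edgeR adjusted p = 8.00e-06).

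Markers of other stages moved with these changes. A list of 6 two-cell marker genes summed to 190 to 199 CPM in double knockdown, against 754 to 798 CPM in scramble, 5 maternal genes to 1310 to 1460 against 2310 to 2400 CPM, and 5 morula genes to 35.2 to 38.4 against 18.3 to 20.4 CPM, with none of these genes at 0. Their part in the member changes was not tested.

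**Figure D2:**
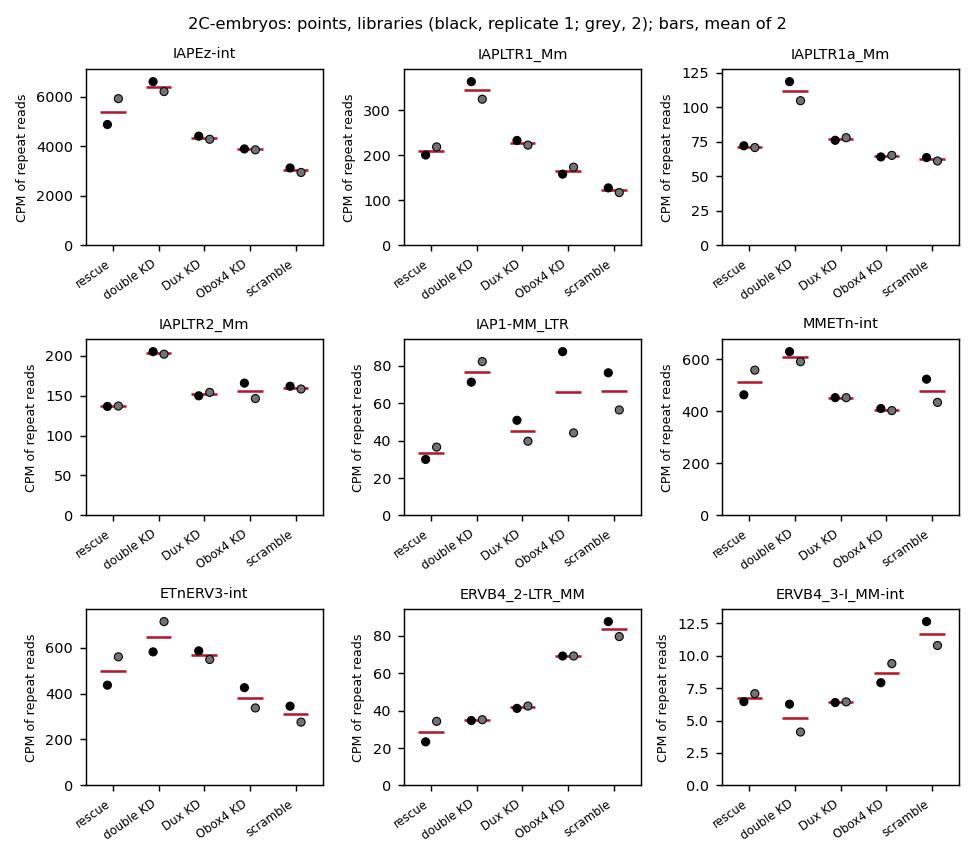
Levels of core members (y axis, TMM-scaled CPM of repeat reads) in the rescue, double knockdown, Dux knockdown, Obox4 knockdown and scramble 2C-embryos; points are libraries and red bars are means of 2. IAPEz-int and IAPLTR1_Mm are highest in double knockdown, and ERVB4_2-LTR_MM is lower there than in scramble.

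Fewer members were called after single knockdown, which used the lower total dose, so that total dose and target cannot be told apart. After *Dux* knockdown, 1 member was called lower and none higher, against 0.284% lower and 0% higher of all repeats. At an adjusted p of at most 0.05 with no fold minimum 5 members were higher and 6 lower, against 3.78% and 5.2% of all repeats. ERVB4_2-LTR_MM had 41.2 and 42.5 CPM in *Dux* knockdown and 87.7 and 79.7 CPM in scramble (log2 −1.003 ± 0.134; edgeR adjusted p = 0.00102), at the fold minimum, and the call was lost with gene-table scaling (log2 −0.96). IAPLTR1_Mm had 233.0 and 222.8 CPM in *Dux* knockdown against 127.8 and 117.5 CPM in scramble, under the minimum at log2 0.89 ± 0.074 (edgeR adjusted p = 1.88e-05), and IAPEz-int 4415 and 4290 CPM against 3130 and 2949 CPM (log2 0.52 ± 0.084; edgeR adjusted p = 0.00303). After *Obox4* knockdown no member was called and no repeat either (0%). Of the members, 8 had an unadjusted p under 0.05, and DESeq2 called 0. Here and below, counts at an unadjusted p and DESeq2 counts have no share of all repeats or genes beside them. They are therefore no result about the members or genes counted. IAPLTR1_Mm, at 158.3 and 173.7 CPM against 127.8 and 117.5 CPM, was the 1 member with an edgeR adjusted p of at most 0.05 (log2 0.43 ± 0.076; edgeR adjusted p = 0.0124), against 0.757% higher and 0.284% lower of all repeats; with gene-table scaling 1 member was higher and 6 lower. Its libraries did not overlap in any of these comparisons, which share the scramble libraries.

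Double knockdown was also set against *Dux* knockdown alone, in which *Obox4* RNA without the 1 copy was itself low (5.00 and 3.01 CPM, against 2.07 and 2.59 CPM in double knockdown). No member and no repeat (0%) was called by edgeR, 13 members had an unadjusted p under 0.05, and DESeq2 called 0 members. At an adjusted p of at most 0.05, 5 of 50 members were higher and 0 lower, against 1.14% and 0.284% of all repeats, and 6 and 3 with gene-table scaling. They were IAPLTR1_Mm (log2 0.59 ± 0.071; edgeR adjusted p = 0.00183), IAPLTR1a_Mm (0.54), IAPLTR2_Mm (0.42), IAPEz-int (0.56) and MMETn-int (0.43). MMETn-int had 628.6 and 590.1 CPM in double knockdown, 452.1 and 452.0 CPM in *Dux* knockdown, 410.3 and 402.3 CPM in *Obox4* knockdown and 522.9 and 433.8 CPM in scramble, so that double knockdown was the knockdown group with both libraries above both scramble libraries. IAPLTR2_Mm was likewise highest in double knockdown, with 205.0 and 201.8 CPM there and between 146.3 and 165.6 CPM in the 6 other knockdown and scramble libraries.

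In the libraries labelled rescue, whose *Dux* RNA lay at the scramble level, 1 member fell past the threshold relative to double knockdown, and several IAP LTRs were lower by less. IAP1-MM_LTR had 29.9 and 36.5 CPM in rescue, against 71.2 and 82.3 CPM in double knockdown (log2 −1.21 ± 0.241; edgeR adjusted p = 0.0077), and this was the only member called, against 0.284% lower and 0.189% higher of all repeats. The call was lost when any 1 of the 4 libraries was left out (edgeR adjusted p 0.0141 to 0.0720). Without the fold minimum 8 members were lower and 2 higher, against 4.82% and 5.58% of all repeats. With gene-table scaling 18 were lower and 0 higher, a count without the share of all repeats. That scaling moved the median change of all repeats by −0.148 on the log2 scale. The 6 two-cell genes summed to 319 to 451 CPM in rescue and 190 to 199 CPM in double knockdown, and the 5 maternal genes to 2230 to 2280 and 1310 to 1460 CPM, and their part was not tested. IAPLTR1_Mm had 200.7 and 218.7 CPM in rescue and 363.5 and 324.6 CPM in double knockdown (log2 −0.72 ± 0.070; edgeR adjusted p = 7.43e-05). IAPLTR1a_Mm (−0.65), IAPLTR2_Mm (−0.57) and IAPLTR2a (−0.56) were lower in the same way. IAPEz-int had 4886 and 5930 CPM in rescue against 6616 and 6216 CPM in double knockdown (log2 −0.25 ± 0.084; edgeR adjusted p = 0.0819), and ERVB4_2-LTR_MM had 23.3 and 34.3 CPM against 34.7 and 35.2 CPM (log2 −0.29 ± 0.139; edgeR adjusted p = 0.228), below its scramble level in each library.

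In morulae, edgeR called no member between the libraries labelled double knockdown and scramble. No repeat was called either (0%). Of the members, 14 had an unadjusted p under 0.05 and DESeq2 called 3, counts without the share of all repeats and so no result about the members. IAPEz-int had 28900 and 36200 CPM in double knockdown and 41850 and 24410 CPM in scramble morulae (log2 −0.03 ± 0.350; edgeR adjusted p = 0.975), and the groups overlapped. ERVB4_2-I_MM-int, the second name per kb there, overlapped as well, at 11060 and 3173 CPM in double knockdown and 8820 and 5881 CPM in scramble. The members with non-overlapping groups included IAP1-MM_LTR, at 48.8 and 69.4 CPM in double knockdown against 17.8 and 14.3 CPM in scramble (log2 1.88 ± 0.255; edgeR adjusted p = 0.146), and IAPEy-int, an IAP class that carries an envelope gene, at 153.6 and 318.4 CPM against 90.9 and 73.3 CPM (log2 1.52 ± 0.370; edgeR adjusted p = 0.249). The higher value of each came from replicate 2, the library with 2-cell markers at 233 CPM. The 6 mESC genes summed to 431 to 916 CPM in double knockdown and 1170 to 1220 CPM in scramble morulae, and the 5 maternal genes to 48 to 83.1 and 27.7 to 37.6 CPM, and their part was not tested.

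In blastomeres that all lacked *Dux*, MMETn-int was higher with *Obox4* KO. It had 544.2 and 1177 CPM in *Obox4* KO and 284.5 and 258.2 CPM in *Obox4* WT (log2 1.67 ± 0.292; edgeR adjusted p = 0.00661), the only member called of 50, against 0.1% of repeats higher and 0.2% lower. With an adjusted p of at most 0.05 and no fold minimum it was also the 1 member of 50, against 0.1% higher and 0.601% lower of all repeats. The groups did not overlap, but the KO libraries differed by more than 2-fold, and without *Obox4* KO replicate 2 the change was 1 on the log2 scale with edgeR adjusted p = 0.04. *Obox4* Het blastomeres had 545.5 and 441.6 CPM. IAPEz-int had 6205 and 12240 CPM in KO and 4779 and 5858 CPM in WT (log2 0.79 ± 0.271; edgeR adjusted p = 0.297). Between *Obox4* Het and WT no member and no repeat (0%) was called, with 7 members at an unadjusted p under 0.05 and 1 called by DESeq2. ERVB4_2-LTR_MM had 202.1 and 166.5 CPM in Het, against 20.0 and 37.7 CPM in WT (log2 2.67 ± 0.502; edgeR adjusted p = 0.0438), the only repeat that passed 0.05 (0.1% of all), and 58.0 and 80.8 CPM in KO. The Het level of ERVB4_2-LTR_MM was thus above its KO level, and this name showed no order by *Obox4* dose. Some stage markers of KO and WT did not overlap in the same libraries. The 6 two-cell genes summed to 93.8 to 147 CPM in KO and 214 to 234 CPM in WT (1 of 6 at 0 in each group). The 5 morula genes summed to 5.38 to 14.2 and 23.8 to 26.2 CPM, and the 6 mESC genes to 287 to 340 and 141 to 209 CPM. The 5 maternal genes overlapped, at 1980 to 2290 CPM in KO and 2030 to 2240 CPM in WT. Het had 132 to 193 CPM of the two-cell and 224 to 310 CPM of the mESC genes. Their part in the member changes was not tested.

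During *Obox4* induction in mESCs, summed ETn levels were on average lower at the later times within a wide spread, and edgeR called no ETn name. ETn names summed to 47210 ± 8293 CPM at 0 h, 38970 ± 11120 CPM at 12 h and 30840 ± 7488 CPM at 48 h (SD, n = 3 each). Most of this sum was MMETn-int, which had 42220, 31620 and 30780 CPM at 0 h, 19560, 34660 and 32450 CPM at 12 h, and 29780, 20290 and 19400 CPM at 48 h (48 h against 0 h, log2 −0.59 ± 0.221; edgeR adjusted p = 0.433). Libraries at 0 and 48 h did not overlap, but the change did not pass. ETnERV3-int had 2385, 1843 and 1885 CPM at 0 h and 1072, 676.7 and 718.4 CPM at 48 h (log2 −1.31 ± 0.233; edgeR adjusted p = 0.0199), which passed 0.05 but not 0.01; it was called lower by DESeq2 (log2 −1.32) and by edgeR with gene-table scaling (−1.38). ETnERV2-int lay in the opposite direction, at 488.4, 482.6 and 425 CPM at 0 h, 538, 701.8 and 613.3 CPM at 12 h, and 786.4, 568.9 and 627.8 CPM at 48 h (48 h against 0 h, log2 0.51 ± 0.127; edgeR adjusted p = 0.145), without overlap between 0 h and either later time. IAP names summed to 7472 ± 818, 8130 ± 1560 and 7720 ± 950 CPM at 0, 12 and 48 h, and IAPEz-int overlapped at all 3 times.

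The 1 member called at 48 h was ERVB2_1-I_MM-int, a low name. It had 1.38, 1.45 and 1.80 CPM at 0 h, 3.70, 7.76 and 6.52 CPM at 12 h, and 13.7, 11.9 and 9.46 CPM at 48 h (log2 2.85 ± 0.366; edgeR adjusted p = 0.00511), with 0.296% of all repeats called higher and 0% lower. Without the fold minimum and at 0.05, 2 members were higher and 1 lower, against 0.887% and 0.197% of all repeats. The libraries of the 3 times did not overlap, although the call was lost in 5 of the 6 fits that left out 1 library (to adjusted p values between 0.01 and 0.1). Of its 83 loci, 1 was under OBOX4 peaks. IAPEY4_I-int, of which 3.50% of 515 loci were bound, had 400.3, 326.7 and 346.9 CPM at 0 h and 720.5, 621.3 and 559.3 CPM at 48 h (log2 0.83 ± 0.130; edgeR adjusted p = 0.0107). The highly bound ERVB4_2-LTR_MM overlapped between times, at 47.4 to 76.6 CPM at 0 h, 52.7 to 126.8 CPM at 12 h and 66.8 to 115.2 CPM at 48 h. At 12 h edgeR called no member and no repeat (0%), 8 members had an unadjusted p under 0.05, and DESeq2 called 0. Markers moved over the same times: at 0, 12 and 48 h the 6 two-cell genes summed to 9.99 to 14.2, 20.8 to 24.3 and 54.9 to 68.2 CPM, the 5 morula genes to 72.7 to 77.7, 90.5 to 105 and 106 to 117 CPM, and 5 fibroblast genes to 1.02 to 2.12, 3.39 to 5.66 and 5.75 to 6.78 CPM. The 6 mESC genes overlapped between times. The part of these markers in the member changes was not tested.

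In PlaB, edgeR called 4 of 25 IAP names higher in double KO mESCs relative to other repeats, and 4 ERVB names and ETnERV2-int lower. IAP names summed to 27260 ± 3912 CPM in double KO, 13070 ± 238 CPM in *Dux* KO, 16870 ± 7729 CPM in *Obox4* KO and 11680 ± 176 CPM in WT cells (SD, n = 3 each). IAPEz-int had 25850, 19310 and 18480 CPM in double KO and 8189, 8352 and 8406 CPM in WT, and rose by 1.35 ± 0.273 on the log2 scale (edgeR adjusted p = 0.00385). Its LTR IAPLTR1_Mm rose by 2.36 ± 0.403 (edgeR adjusted p = 0.00129), with 2152, 1634 and 4059 CPM against 478.3, 463.4 and 580.7 CPM. IAPEy-int had 718.4, 446.8 and 472.3 CPM in double KO, against 192.8, 212.1 and 186.1 CPM in WT (1.47 ± 0.200; edgeR adjusted p = 3.61e-04). IAPA_MM-int was the other one called higher, at 22.1 to 35.8 CPM against 8.12 to 10.4 CPM (1.61 ± 0.266; edgeR adjusted p = 0.00108). All 4 had non-overlapping groups.

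How libraries are scaled matters for these double KO changes. Scaling by the gene table in place of the repeat table moved the median change of all repeats by −0.91 on the log2 scale for double KO against WT, by −0.58 for double KO against *Dux* KO, by −0.32 for *Dux* KO against WT and by −0.35 for *Obox4* KO against WT. With gene-table scaling, IAPLTR1_Mm was still called higher, and IAPEz-int (0.42), IAPEy-int (0.53) and IAPA_MM-int (0.70) were under the fold minimum. IAPLTR1a_Mm, IAPLTR2_Mm, IAP-d-int and IAPLTR2a, all higher at an adjusted p of at most 0.05 with repeat scaling, were lower with gene scaling (−0.64, −0.17, −0.45 and −0.52). Of all repeats, 11 were called higher and 40 lower with repeat scaling, and 1 higher and 417 lower with gene scaling; of the members, 4 and 5 with repeat scaling and 1 and 23 with gene scaling. The changes given here are therefore relative to the other repeats. In double KO replicate 3, 1 repeat name, FordPrefect, took 41.8% of repeat reads, against 11.9 to 13.6% in WT.

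The members called lower in PlaB numbered 5 in double KO, 5 in *Dux* KO and 2 in *Obox4* KO, in comparisons that share the WT libraries. ETnERV2-int had 257.3, 310.8 and 203.6 CPM in double KO, 455.6, 454.9 and 456.0 CPM in *Dux* KO, 329.4, 332.2 and 353.7 CPM in *Obox4* KO and 678.2, 690.4 and 691.1 CPM in WT. It fell in double KO (log2 −1.40 ± 0.116; edgeR adjusted p = 9.28e-06) and in *Obox4* KO (−1.02 ± 0.113; edgeR adjusted p = 3.78e-04), and was at −0.59 in *Dux* KO (edgeR adjusted p = 0.00322). ERVB4_3-LTR_MM, a low name, had 2.17 to 2.38 CPM in double KO, 2.67 to 3.72 CPM in *Dux* KO, 4.79 to 6.99 CPM in *Obox4* KO and 13.5 to 17.9 CPM in WT, and was called lower in all 3 (−2.82, −2.40 and −1.50). ERVB4_1-I_MM-int and ERVB5_1-LTR_MM fell in double KO (−1.05 and −1.87) and in *Dux* KO (−1.20 and −1.54). ERVB3_1-I_MM-int fell in double KO (−1.04), and ERVB7_2B-LTR_MM (−1.04) and ERVB4_3-I_MM-int (−1.50) in *Dux* KO.

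Against the background, members made 4 of 51 higher and 5 lower in double KO (1.04% and 3.8% of all repeats), 0 higher and 5 lower in *Dux* KO (0.19% and 3.61%), and 0 higher and 2 lower in *Obox4* KO (0% and 1.23%). With an adjusted p of at most 0.05 and no fold minimum they made 9 higher and 11 lower in double KO (11% and 15.7% of all repeats). They made 3 and 17 in *Dux* KO (4.46% and 13.5%) and 2 and 9 in *Obox4* KO (2.75% and 7.21%). With gene-table scaling these were 3 and 39, 2 and 23, and 0 and 16, again without the share of all repeats. Without *Obox4* KO replicate 3 and double KO replicate 3, the libraries that stood apart, 4 members were called higher and 6 lower in double KO (0.847% and 4.05% of all repeats), with all 4 IAP names among them, while the calls for ERVB4_1-I_MM-int (log2 −0.94) and ERVB3_1-I_MM-int (−0.83) in double KO were lost to the fold minimum. Under this choice, made after seeing the data, 4 members were called in *Obox4* KO and 8 in *Dux* KO, against 2.35% and 4.71% of all repeats.

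ERVB4_2-LTR_MM was among the members that depended on those libraries. It had 106.4, 90.0 and 525.6 CPM in double KO, 72.3, 69.6 and 72.3 CPM in *Dux* KO, 79.2, 75.7 and 200.5 CPM in *Obox4* KO and 317.7, 309.8 and 335.1 CPM in WT. With all libraries it passed at 0.05 only in *Dux* KO (log2 −2.17 ± 0.571; edgeR adjusted p = 0.0201), and the double KO groups overlapped. Without the 2 libraries it was lower in double KO (log2 −1.71), *Dux* KO (−2.17) and *Obox4* KO (−2.04). That choice was made after the data were seen. It left out the libraries with the highest values of their groups for this name, so no p-value is given. The third replicates of double KO and *Obox4* KO were high also for IAPLTR1_Mm (4059 and 1633 CPM), and that of *Obox4* KO for IAPEz-int, at 21130 CPM against 9021 and 9448 CPM in the other *Obox4* KO libraries.

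*Dux* KO cells in PlaB had the most ETn RNA. ETn names summed to 34320 ± 6054 CPM in double KO, 60170 ± 656 CPM in *Dux* KO, 33670 ± 12430 CPM in *Obox4* KO and 31580 ± 440 CPM in WT. MMETn-int had 40970, 41680 and 41770 CPM in *Dux* KO and 21820, 22000 and 22570 CPM in WT, just under the fold minimum (log2 0.91 ± 0.199; edgeR adjusted p = 0.00754). ETnERV-int (0.98 ± 0.176; edgeR adjusted p = 0.00231) was likewise near it, and the groups of neither overlapped. Set against *Dux* KO, double KO had less MMETn-int, at 25810, 26090 and 17170 CPM (log2 −0.85; edgeR adjusted p = 0.0269), and less ETnERV2-int (log2 −0.81; edgeR adjusted p = 0.00272). The only member edgeR called between these lines, both of which had next to no *Obox4* RNA, was IAPEy-int, at 718.4, 446.8 and 472.3 CPM in double KO against 225.6, 231.2 and 222.5 CPM in *Dux* KO (1.27 ± 0.199; edgeR adjusted p = 0.00376), with 0.38% of repeats called higher and 0.0949% lower. The call was lost without double KO replicate 1 or any 1 of the *Dux* KO libraries and with gene-table scaling (log2 0.66), while DESeq2 called 6 members. At an adjusted p of at most 0.05, 10 of 25 IAP names were higher there and 0 lower, with 0 of 5 ETn names higher and 2 lower and 0 of 21 ERVB names higher and 2 lower, against 3.61% and 3.8% of all repeats, but with gene-table scaling IAPLTR1a_Mm, IAPLTR2a, IAPEY2_LTR and IAPEY_LTR were at 0, −0.19, −0.06 and −0.04, and over all members 4 were higher and 21 lower, against 10 and 4 with repeat scaling.

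Stage markers moved with genotype in PlaB. The 5 morula genes summed to 3000 to 3750 CPM in double KO, 446 to 460 CPM in *Dux* KO, 577 to 1790 CPM in *Obox4* KO and 160 to 167 CPM in WT. The 6 two-cell genes summed to 0 to 0.192 CPM in double KO (5 of 6 at 0), 0.0824 to 0.346 CPM in *Dux* KO (4 at 0), 312 to 635 CPM in *Obox4* KO and 691 to 769 CPM in WT, and the 6 mESC genes to 1300 to 1420, 2510 to 2530, 1490 to 2040 and 2860 to 2920 CPM in the same lines. Their part in the member changes was not tested.

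**Figure D3:**
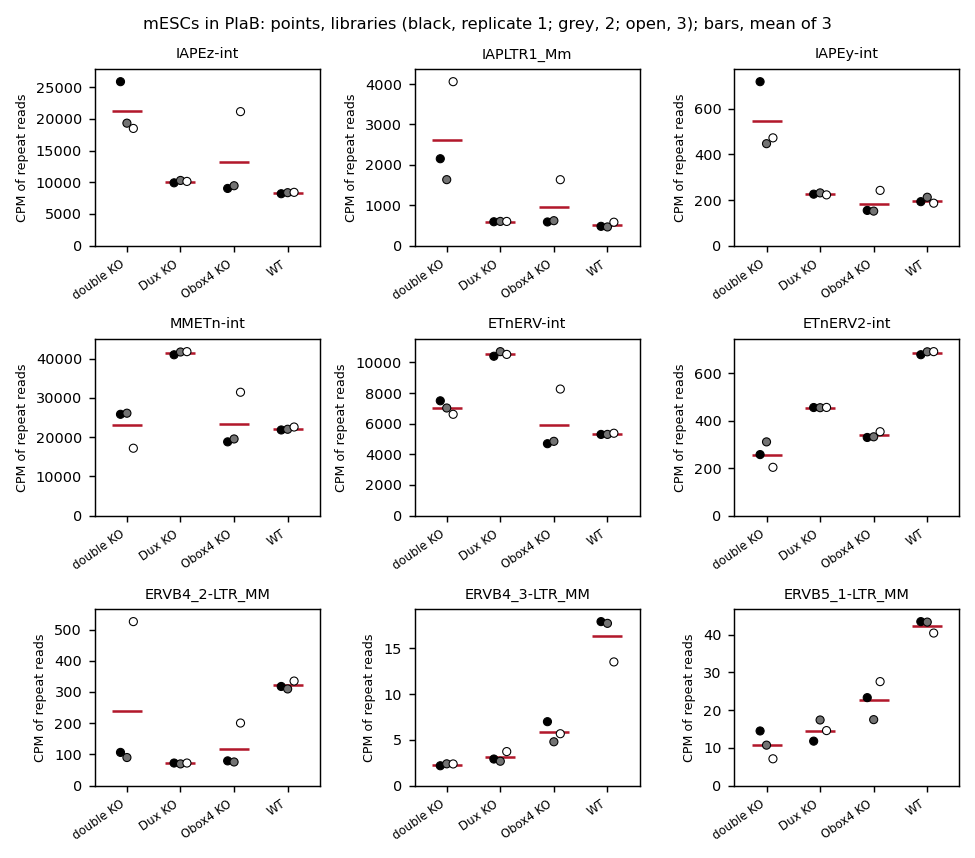
Levels of core members (y axis, TMM-scaled CPM of repeat reads) in double KO, Dux KO, Obox4 KO and WT mESCs in PlaB; points are libraries and red bars are means of 3. IAPEz-int and IAPLTR1_Mm are highest in double KO relative to other repeats, MMETn-int is highest in Dux KO, and 1 Obox4 KO library (replicate 3) lies apart from the other 2 in IAPEz-int.

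Of the names called against a control, 3 were called in the same direction in embryos and cells. No share of all repeats is set beside this count, so it is no result about the members. ERVB4_3-I_MM-int fell in double knockdown 2C-embryos (log2 −1.14) and in *Dux* KO mESCs in PlaB (−1.50), which are not the same loss. IAPEz-int and IAPLTR1_Mm were called higher in double knockdown 2C-embryos (log2 1.08 and 1.49) and in double KO mESCs in PlaB (1.35 and 2.36), but were at −0.03 and −0.18 in morulae labelled double knockdown and at −0.10 and −0.14 at 48 h of induction. With gene-table scaling IAPEz-int was under the fold minimum in double KO. RLTRETN_Mm was not called in any comparison, with changes between −0.57 in Het blastomeres and 0.51 in double KO mESCs. ERVB7_1-LTR_MM was not called in any either: it was at −0.54 in double knockdown 2C-embryos (edgeR adjusted p = 0.00573) and at 1.10 in double KO mESCs (edgeR adjusted p = 0.028). ERVB4_1B-I_MM-int was under the fold minimum in the same comparisons, at −0.28 and −0.53 (edgeR adjusted p = 0.00765 and 0.00753).

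**Figure D4:**
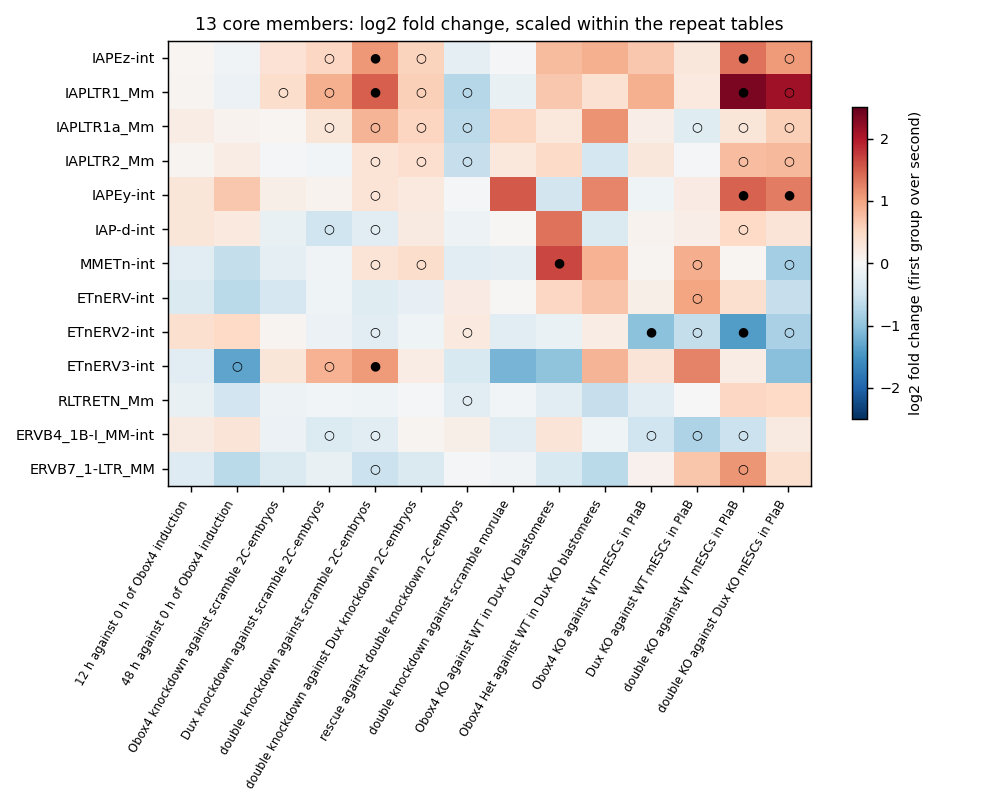
Heat map of the log2 change (colour) of the 13 core members (rows) in 14 comparisons (columns), from edgeR with repeat-table scaling; filled circles passed adjusted p of at most 0.01 and 2-fold, open circles only adjusted p of at most 0.05. Filled circles for IAPEz-int and IAPLTR1_Mm appear in double knockdown 2C-embryos and in double KO mESCs; several other IAP names in the PlaB comparisons change sign with gene-table scaling.

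Genes that repress such elements were called in both directions, and in the double knockdown and double KO comparisons at shares near those of all genes, so that these counts are no result about the list. The list held 51 genes, among them *Trim28*, *Setdb1*, the DNA methyltransferases and KRAB zinc finger genes, of which 48 to 50 were tested; their levels are CPM of gene reads. In double knockdown 2C-embryos 6 were called higher and 3 lower, against 8.42% and 3.16% of all genes. *Setdb1* fell to 106.4 ± 7.83 CPM in double knockdown, against 215.0 ± 5.02 CPM in scramble (log2 −1.02 ± 0.088; edgeR adjusted p = 1.19e-07). *Zfp57*, a KRAB zinc finger gene that protects imprints, and *Asf1a*, which encodes a histone chaperone, fell as well (−1.198 and −1.01). *Tet1* (1.70), which oxidises methylated cytosine, *Ehmt2* (1.62), which encodes the methyltransferase G9a, *Piwil2* (1.85) and *Mov10l1* (1.46), both of the piRNA pathway, and *Zfp457* (2.11) rose, and *Apobec3*, a cytidine deaminase that restricts retroviruses, was the sixth. *Trim28* had 126.2 ± 0.887 CPM in double knockdown and 120.1 ± 12.7 CPM in scramble, and *Dnmt1* 188.4 ± 6.77 and 193.5 ± 14.8 CPM, and neither was called.

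In the libraries labelled rescue, *Setdb1* was at 192.5 ± 10.8 CPM against 106.4 ± 7.83 CPM in double knockdown, under the fold minimum (log2 0.86 ± 0.087; edgeR adjusted p = 2.27e-06). *Zfp57* rose (1.46), and *Piwil2* (−1.33), *Mov10l1* (−1.21) and *Suv39h1* (−1.12), an H3K9 methyltransferase gene, fell, against 1.1% of genes higher and 3.27% lower. After *Dux* knockdown *Tet1* (1.23) and *Ehmt2* (1.05) were called higher and none of the list lower, against 3.25% and 1.05% of genes. No listed gene was called by edgeR after *Obox4* knockdown (0.23% of genes higher and 0.182% lower), where 24 had an unadjusted p under 0.05 and DESeq2 called 0. Between double and *Dux* knockdown edgeR called 0 (0.377% of genes in each direction), with 28 at an unadjusted p under 0.05 and 1 called by DESeq2. In morulae edgeR called 0 (0% of genes), with 12 at an unadjusted p under 0.05 and 2 called by DESeq2, and in blastomeres it called 0 with *Obox4* KO and 0 with Het (0% of genes), with 9 and 5 at an unadjusted p under 0.05 and 0 called by DESeq2 in either. *Setdb1* averaged 48.9 ± 46.0 CPM in *Obox4* KO and 75.6 ± 9.26 CPM in *Obox4* WT blastomeres, and *Trim28* 40.6 ± 29.0 and 94.9 ± 4.21 CPM, with *Dnmt1* at 215.8 ± 11.3 and 189.2 ± 1.77 CPM.

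In mESCs, *Trim28* rose on induction relative to 0 h, with 1551 ± 122 CPM at 0 h, 3420 ± 450 CPM at 12 h (log2 1.14 ± 0.139; edgeR adjusted p = 0.00155) and 3268 ± 321 CPM at 48 h. It was the only repressor gene called at 12 h (0.612% of genes higher and 0.145% lower), and *Dnmt3a* (1.18), *Dnmt3b* (1.03) and *Mov10l1* (1.16) joined it at 48 h (3.37% and 0.574%). The 12 h call was lost without 0 h replicate 2, without 0 h replicate 3 and with the replicate block. *Setdb1* and *Dnmt1* were not called; *Dnmt1* averaged 443.2 ± 12.1, 381.5 ± 15.8 and 331.4 ± 12.3 CPM at 0, 12 and 48 h.

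In PlaB, double KO had 5 repressor genes higher and 5 lower than WT, against 9.25% and 8.79% of all genes. *Mov10l1* (1.57), *Dnmt3a* (1.14), *Piwil2* (1.12) and *Ehmt2* (1.44) rose, and *Apobec3* (−1.45), the chromatin remodeller gene *Atrx* (−1.40), *Tet1* (−1.46) and *Rif1* (−1.52) fell. *Obox4* KO had 1 higher and 3 lower (4.92% and 3.96% of genes), *Mov10l1* (1.36) against *Apobec3* (−1.43), *Atrx* (−1.32) and *Tet1* (−1.25). In *Dux* KO edgeR called 0 (1.62% and 4.7% of genes), with 15 at an unadjusted p under 0.05 and 0 called by DESeq2. For double KO against *Dux* KO, edgeR called *Zfp57* (−1.07), *Tet1* (−1.31), *Rif1* (−1.25) and the remodeller gene *Hells* (−1.17) lower and none higher, against 2% lower and 5.07% higher of all genes. *Setdb1* had 221.6 ± 35.1 CPM in double KO, 306.1 ± 5.67 CPM in *Dux* KO, 264.4 ± 27.01 CPM in *Obox4* KO and 314.0 ± 3.74 CPM in WT, and was not called (double KO, log2 −0.50; edgeR adjusted p = 0.00480).

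Members bound by OBOX4 mostly carried active marks. Peak lists of H3K4me3, found at active promoters, H3K27ac, found at active promoters and enhancers, and H3K27me3, laid down by Polycomb, came from *Obox4* KO and WT mESCs with and without PlaB (3 lists each). In WT cells without PlaB, 82.2 ± 1.71% of the 610 bound loci were under H3K27ac peaks, against 2.31 ± 0.433% of the member loci not bound (SD, n = 3 lists). For H3K4me3 the shares were 73.3 ± 2.65% and 1.95 ± 0.0647%, and for H3K27me3 1.69 ± 0.473% and 0.773 ± 0.0309%. The bound loci of other LTR-class repeats had lower shares of H3K27ac and H3K4me3, 68.1% and 48.2%. Of the bound ETn loci, 94.2 ± 0.926% had H3K27ac, against 77.8 ± 1.29% of bound ERVB and 48.0 ± 8.53% of bound IAP loci, whose H3K27me3 share was higher, 11.3 ± 2.59%. In *Obox4* KO cells without PlaB, H3K27ac was on 90.4 ± 2.48% of the same loci and H3K4me3 on 66.6 ± 2.204%. The OBOX4 peaks are from induced cells and the marks from others, so they are not the same chromatin. The 610 bound loci lay in 320 sites that share peaks, so the loci are not independent. Peaks of either kind are missed where reads cannot be placed. The part of this in the difference between bound and other loci was not tested.

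Over all loci, none of the 48 comparisons of mark shares passed adjustment; with 3 lists against 3 the exact permutation test cannot go below p = 0.1, and the smallest adjusted p of these exact tests was 0.2. Without PlaB, IAP loci under H3K4me3 peaks made up 0.682, 0.822 and 0.780% in *Obox4* KO and 1.14, 1.19 and 1.15% in WT, with no overlap (exact two-sided permutation p = 0.1), and all other LTR-class loci 1.34% and 1.88%. IAP loci under H3K27ac peaks were 0.561 ± 0.0885% in *Obox4* KO and 0.945 ± 0.253% in WT (exact permutation p = 0.1), while other LTR-class loci had the opposite order, 3.02% and 2.54%. With PlaB, WT cells had H3K4me3 on 6.78 ± 0.803% of ETn loci, against 9.79 ± 0.439% without (exact permutation p = 0.1), and other LTR-class loci 0.815% and 1.88%. ERVB4_2-LTR_MM had H3K27ac on 29.1 ± 2.83% of its loci in *Obox4* KO and 7.93 ± 2.02% in WT without PlaB, and on 20.98 ± 2.52% and 17.9 ± 2.02% with PlaB, values that were not tested.

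**Figure D5:**
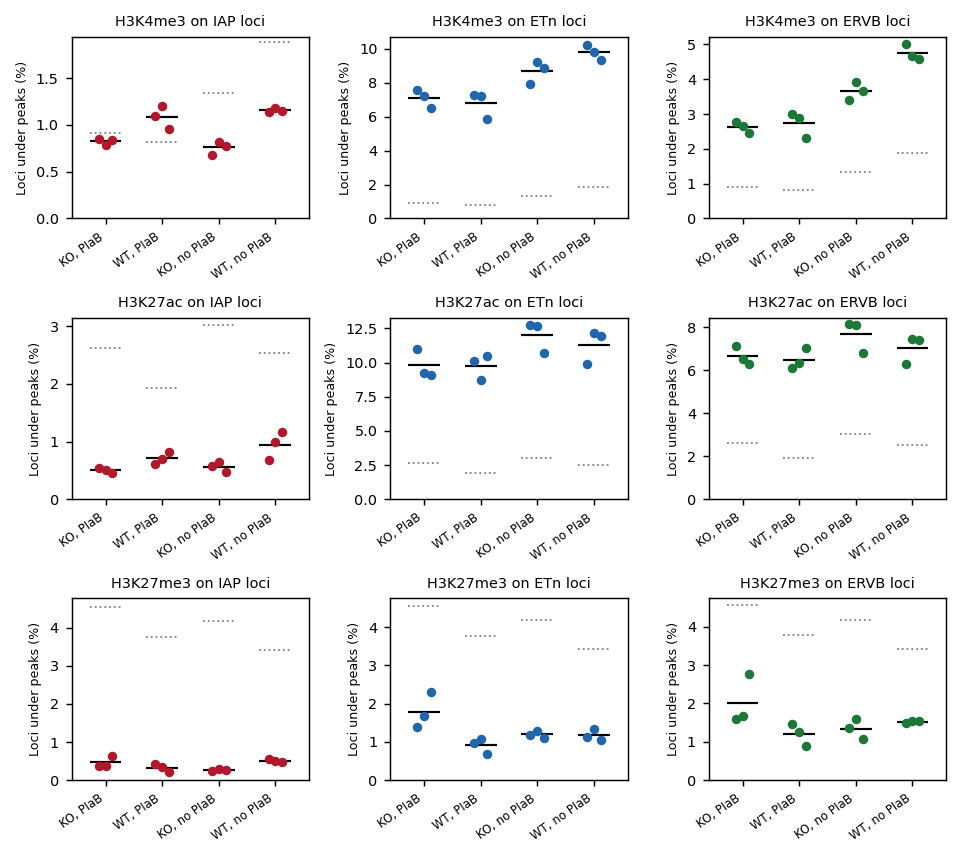
Share of IAP, ETn and ERVB loci under H3K4me3, H3K27ac and H3K27me3 peaks (y axis, percent) in Obox4 KO and WT mESCs with and without PlaB; coloured points are the 3 lists, black bars their means, and dotted grey lines the mean share of other LTR-class loci. ETn loci have the highest H3K4me3 and H3K27ac shares, and the IAP shares lie under the dotted line for H3K27ac in each condition.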

How the data were processed

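RNA-seq tables of 41 mouse libraries and CUT&RUN peak lists were used as deposited. Per the paper's methods, the authors trimmed reads with fastp 0.23.2, aligned them with STAR 2.7.9a to GRCm38 and counted them with featureCounts 2.0.1. Genes were deposited as whole counts of uniquely placed reads, and repeats as estimated counts in which a read with several placements was shared by fractions. The blastomere tables come, per the file headers, from featureCounts 2.0.6 with fractional, unstranded counting. For CUT&RUN the authors used Bowtie2 2.4.1 for alignment and MACS3 3.0.0a6 to call the peaks of each replicate on its own. Per the file headers these lists hold −log10 p- and q-values, a fold enrichment (ratio) and a score.

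Estimated counts were rounded. Libraries were TMM-scaled over repeat rows (genes over gene rows), low rows were removed with filterByExpr, and a model of group alone was fitted in edgeR 4.0.16 (R 4.3.3) with Benjamini-Hochberg adjustment over all repeats, of which 999 to 1057 were tested in an experiment. Calls needed an adjusted p of at most 0.01 and a 2-fold change. DESeq2 1.42.0, no filter, gene-table scaling, a replicate block and leaving out single libraries were alternatives. The fits were tested on simulated data. Peaks were overlapped with repeat loci by at least 1 base, shares have Wilson 95% intervals, which cover counting error only, and mark shares were compared by an exact two-sided permutation test over lists (SciPy 1.17.1), adjusted over 48 comparisons. Repeat classes came from name and family labels of the study's annotation, gene starts from the GRCm38 reference annotation. No sample column was left out (0).

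Named are all called members, 13 core members, the 6 highest per kb in each experiment, the 8 most bound names with at least 100 loci, called repressor genes (up to 8) and *Trim28*, *Setdb1* and *Dnmt1*. Other names were chosen after their values were seen. The members, marker lists and repressor list were chosen with earlier results of these data known.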

Additional observations from a re-analysis of the deposited data

Results flagged for a closer look

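For 10 members the difference between double loss and *Dux* loss was unlike the difference between *Obox4* loss and the control by edgeR's test of the interaction (adjusted p of at most 0.05, with no fold minimum). Each value is the log2 change of double loss against *Dux* loss, minus that of *Obox4* loss against scramble or WT. It is no measure of *Obox4* loss with *Dux* absent, since *Obox4* RNA was already low without *Dux*: 0 to 0.192 CPM in double KO and 0.116 to 0.130 CPM in *Dux* KO, and, without the copy Obox4-ps35, 2.07 and 2.59 CPM in double knockdown and 5.00 and 3.01 CPM in *Dux* knockdown. In 2C-embryos the differences were positive for IAPLTR2_Mm (0.46 ± 0.085; edgeR adjusted p = 0.0184), MMETn-int (0.67 ± 0.128; edgeR adjusted p = 0.0194) and IAPLTR1a_Mm (0.49 ± 0.103; edgeR adjusted p = 0.0358), with 9 of 50 members at an unadjusted p under 0.05. These are 3 members of 50, against 0.946% of all repeats with a positive and 0.473% with a negative difference, and no member passed 0.01 with the fold minimum in edgeR or DESeq2.

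In PlaB-treated mESCs the difference was positive for IAPEY5_I-int (2.08 ± 0.437; edgeR adjusted p = 0.0227), IAPEy-int (1.39 ± 0.279; edgeR adjusted p = 0.0187), ERVB4_1-I_MM-int (0.85 ± 0.162; edgeR adjusted p = 0.0135), IAPEY_LTR (0.81 ± 0.150; edgeR adjusted p = 0.0132), ERVB4_1B-I_MM-int (0.72 ± 0.171; edgeR adjusted p = 0.0375) and IAPEY2_LTR (0.59 ± 0.134; edgeR adjusted p = 0.0323). It was negative for ERVB4_2-I_MM-int (−0.79 ± 0.183; edgeR adjusted p = 0.0345). These are 6 positive and 1 negative of 51 members, against 3.61% and 1.04% of all repeats. With the fold minimum at 0.01, edgeR called 0 members and DESeq2 2, and 21 had an unadjusted p under 0.05. The libraries that stood apart, *Obox4* KO replicate 3 and double KO replicate 3, enter these differences, and without them 7 members were called positive and 0 negative, against 2.64% and 0.188% of all repeats. No group had as many as 4 libraries, so single libraries were not tested against their group.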

How the results depend on the processing

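Every member and repressor count was recomputed under each alternative, and single member changes were recomputed in 1308 fits of 129 changes. Of these, 9 single changes reversed, all with gene-table scaling: in *Obox4* KO against WT, IAPLTR2a (log2 −0.07); in double KO against WT, IAPLTR1a_Mm (−0.64), IAPLTR2_Mm (−0.17), IAP-d-int (−0.45) and IAPLTR2a (−0.52); and in double KO against *Dux* KO, IAPLTR1a_Mm (0), IAPEY2_LTR (−0.06), IAPLTR2a (−0.19) and IAPEY_LTR (−0.04). Of the 129 changes, DESeq2 kept the call of 121, no filter on low counts 127, gene-table scaling 94, and leaving out the 2 mESC libraries that stood apart 69 of 72, a choice made after the data were seen. Leaving out 1 library kept 426 of 720 calls. The cause of these differences was not tested.

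At an edgeR adjusted p of at most 0.05 with no fold minimum, members called numbered 3 at 48 h of induction, 1 after *Obox4* knockdown, 11 after *Dux* knockdown, 22 after double knockdown, 5 for double against *Dux* knockdown, 10 for rescue, 3 for the knockdown interaction, 1 for Het blastomeres, 11 in *Obox4* KO, 20 in *Dux* KO, 20 in double KO, 14 for double against *Dux* KO and 7 for the KO interaction. Repressor genes numbered 8 at 12 h, 11 at 48 h, 9 after *Obox4* knockdown, 26 after *Dux* knockdown and 30 after double knockdown. They numbered 21 for double against *Dux* knockdown, 31 for rescue, 15 in *Obox4* KO, 9 in *Dux* KO, 30 in double KO and 22 for double against *Dux* KO. The repressor counts in this section have no share of all genes under the same setting beside them. They are therefore no result about the list. With DESeq2, members numbered 2 at 48 h, 3 in morulae, 1 in Het blastomeres, 8 in *Dux* KO, 6 for double against *Dux* KO and 2 for the KO interaction, and repressor genes 1 for double against *Dux* knockdown, 2 in morulae and 7 for double against *Dux* KO. With no filter, members numbered 2 in *Obox4* KO and 1 in Het blastomeres, and repressor genes 1 after *Dux* knockdown, 1 for double against *Dux* knockdown, 4 in morulae and 8 for double against *Dux* KO. With gene-table scaling, members numbered 2 at 48 h, 0 after *Dux* knockdown, 7 in *Obox4* KO, 13 in *Dux* KO, 24 in double KO and 10 for double against *Dux* KO, and all repeats called were 0 higher and 81 lower in *Dux* KO (2 and 38 with repeat scaling), 0 and 38 in *Obox4* KO (0 and 13), 4 and 73 for double against *Dux* KO (4 and 1), 9 and 15 after double knockdown (10 and 11) and 4 and 0 in morulae (0 and 0). Without the 2 mESC libraries that stood apart, members numbered 4 in *Obox4* KO, 8 in *Dux* KO, 4 for double against *Dux* KO and 7 for the KO interaction, and repressor genes 7 in *Obox4* KO.

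With the replicate block, members numbered 0 at 48 h and 2 for double against *Dux* KO, repressor genes 0 at 12 h, and 116 of 129 single changes kept their call. Same-numbered libraries correlated weakly: the median correlation was −0.11 in the induction series, −0.01 in 2C-embryos, 0.18 in morulae, 0 in blastomeres and 0.03 in PlaB. Libraries that correlated best with their own number were 2 of 9 in the induction series, 0 of 10 in 2C-embryos, 4 of 4 in morulae, 2 of 6 in blastomeres and 9 of 12 in PlaB. These values do not settle whether the numbers pair the samples.

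Leaving out 1 library at a time, the members called numbered 0 to 0 at 12 h, 0 to 1 at 48 h, 0 to 0 after *Obox4* knockdown, 0 to 1 after *Dux* knockdown, 3 to 5 after double knockdown, 0 to 0 for double against *Dux* knockdown, 0 to 0 for rescue, 0 to 0 for the knockdown interaction, 0 to 1 in morulae, 1 to 3 in *Obox4* KO blastomeres, 0 to 3 in Het blastomeres, 1 to 3 in *Obox4* KO, 4 to 5 in *Dux* KO, 6 to 9 in double KO, 0 to 3 for double against *Dux* KO and 0 to 2 for the KO interaction. Repressor genes numbered 0 to 1, 3 to 4, 0 to 0, 1 to 2, 6 to 9, 0 to 2 and 3 to 5 over the first 7 of these comparisons, 0 to 12 in morulae, 0 to 3 in *Obox4* KO and 0 to 0 in Het blastomeres, 4 to 7 in *Obox4* KO, 0 to 0 in *Dux* KO, 8 to 12 in double KO and 2 to 6 for double against *Dux* KO.

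The share of loci under OBOX4 peaks was 1.109% over all members, 0.1294% for IAP, 3.985% for ETn and 2.617% for ERVB with peaks required in all 3 replicates; 2.03, 0.3881, 6.695 and 4.667% with any replicate; 1.018, 0.06993, 3.823 and 2.466% with a −log10 q of at least 10; and 0.4558, 0.1049, 1.992 and 0.6416% with the summit inside the locus. Leaving out 1 OBOX4 replicate, they were 1.14 to 1.277, 0.1364 to 0.1713, 4.057 to 4.541 and 2.705 to 3.07%.

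Histone differences over all members (percentage points) turned their direction in these settings. For H3K4me3, *Obox4* KO minus WT with PlaB was 0.07767 with a −log10 q of at least 5 and 0.0338 with at least 0.5 of the locus covered; relative to other LTR-class loci, *Obox4* KO minus WT without PlaB was 0.1695, PlaB minus none 1.059 in WT and 0.432 in *Obox4* KO. For H3K27ac, *Obox4* KO minus WT with PlaB was 0.04967 and 0.056 under the 2 stricter settings and 0.02467 without WT replicate 3, and without PlaB 0.2387 and 0.076, 0.058 without WT replicate 2, 0.1572 without *Obox4* KO replicate 3 and 0.1055 without WT replicate 3; PlaB minus none in WT relative to other LTR-class loci was 0.18. For H3K27me3 with a −log10 q of at least 5, *Obox4* KO minus WT without PlaB was 0.06727 and PlaB minus none in WT 0.02216. Leaving out 1 list, the differences for *Obox4* KO minus WT with PlaB, the same without PlaB, PlaB minus none in *Obox4* KO and PlaB minus none in WT ran from −0.2437 to 0.02467, −0.3055 to 0.1572, −0.7348 to −0.4213 and −0.7288 to −0.3178 for H3K27ac, from 0.1995 to 0.4606, −0.2398 to −0.165, 0.1789 to 0.44 and −0.2814 to −0.1342 for H3K27me3, and from −0.3027 to −0.07117, −0.7055 to −0.523, −0.4617 to −0.2792 and −0.9135 to −0.682 for H3K4me3.

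Near-identical copies limit all values: reads that fit several copies were shared among them, so that a name's level does not say which loci were transcribed, and peaks are missed where reads cannot be placed. With 2 libraries a group, low names such as ERVB4_3-I_MM-int rest on few reads, and mark shares depend on how many peaks each list holds.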
